A study of Mus musculus with 8 samples.

Results

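TGF-β, activin and BMP signalling genes were followed in murine malignant peripheral nerve sheath tumour (MPNST) cells exposed to the MET kinase inhibitor capmatinib. The set held 48 genes, the ligands, latent binding proteins, antagonists, receptors, SMADs and ID proteins of the pathway, found by symbol among the 50600 genes of the count table. Of these, 45 had 10 or more counts in 2 or more libraries (of 8) and were tested. *Bmp7*, *Gdf6* and *Nog* did not, with 0 counts in every library for *Bmp7* and at most 1 count in any library for the other two. In all, 14497 genes passed the same filter.

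NF1-MET is a cell line from a mouse MPNST with *Met* amplification, raised in an *Nf1* fl/ko animal with a lox-stop-loxMET tg/+ transgene and Plp-creERT tg/+, in which Cre is driven from the Schwann lineage promoter of *Plp*. The line has intact *Trp53* and a spontaneous deletion of *Cdkn2a*. NF1-MET;sgP53, here also called the sgP53 line, was made from it by lentiviral CRISPR-Cas9 against *Trp53*. The *Cdkn2a* locus of this derivative was not reported. Each line received DMSO (vehicle, 0 nM) or 100 nM capmatinib for 24 h in medium with serum, and the 4 groups held 2 libraries of polyadenylated RNA each, labelled as biological replicates and treated in duplicate wells. Each genotype was represented by 1 line, so a difference between the lines cannot be told apart from other differences that arose while the derivative was made. An empty-vector control of NF1-MET was also made in the study. The descriptions of the NF1-MET libraries begin with SEV, which the labels do not spell out, and their titles name NF1-MET alone.

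Ligands of this superfamily are secreted dimers that assemble type I and type II serine/threonine kinase receptors. TGF-β and activin receptors phosphorylate SMAD2 and SMAD3, BMP receptors phosphorylate SMAD1, SMAD5 and SMAD9, and both groups enter the nucleus with SMAD4. TGF-β is secreted in a latent complex that is held in the matrix by LTBP proteins, and activins and BMPs are held in check by secreted antagonists such as follistatin, gremlin and chordin. SMAD6 and SMAD7 are feedback inhibitors, and the ID genes are classical BMP targets. In peripheral nerve, TGF-β and BMP signals are known to act on Schwann cells and on the fibroblasts around them.

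The 250 bases before the annotated start of 5 genes are shown because they are among the genes with the main movements described further on. They are the ligand gene *Tgfb1*, which fell, the ligand genes *Tgfb2* and *Bmp4*, which rose from low levels, and *Smad6* and *Smad9*, a feedback inhibitor and a BMP-specific SMAD that rose. Sequences are from RefSeq on GRCm38.p6, written 5′ to 3′ on the strand of the gene, with the last base at position -1. Capitals mark matches to the motifs named after the sequences.
Tgfb1 (chr7:25686752-25687001, plus strand): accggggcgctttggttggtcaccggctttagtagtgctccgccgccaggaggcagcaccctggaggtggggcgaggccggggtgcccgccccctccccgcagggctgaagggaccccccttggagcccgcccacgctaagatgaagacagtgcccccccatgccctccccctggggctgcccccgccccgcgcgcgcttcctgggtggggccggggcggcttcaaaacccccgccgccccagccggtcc
Tgfb2 (chr1:186705990-186706239, minus strand): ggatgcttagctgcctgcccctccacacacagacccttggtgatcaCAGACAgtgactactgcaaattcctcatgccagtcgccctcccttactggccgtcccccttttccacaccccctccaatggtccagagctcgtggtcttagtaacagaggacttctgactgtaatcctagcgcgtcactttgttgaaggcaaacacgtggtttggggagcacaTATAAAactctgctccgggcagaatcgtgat
Bmp4 (chr14:46390670-46390919, minus strand): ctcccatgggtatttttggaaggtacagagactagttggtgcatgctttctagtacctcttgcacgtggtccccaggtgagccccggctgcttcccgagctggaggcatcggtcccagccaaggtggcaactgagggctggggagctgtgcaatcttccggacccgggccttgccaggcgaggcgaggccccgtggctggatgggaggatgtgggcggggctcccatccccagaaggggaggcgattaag
Smad6 (chr9:64022060-64022309, minus strand): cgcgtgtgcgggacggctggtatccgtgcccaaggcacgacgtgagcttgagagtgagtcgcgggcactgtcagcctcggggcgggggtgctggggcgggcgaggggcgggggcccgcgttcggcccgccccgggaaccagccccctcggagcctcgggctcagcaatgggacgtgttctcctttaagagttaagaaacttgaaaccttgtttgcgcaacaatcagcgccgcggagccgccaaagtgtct
Smad9 (chr3:54755332-54755581, plus strand): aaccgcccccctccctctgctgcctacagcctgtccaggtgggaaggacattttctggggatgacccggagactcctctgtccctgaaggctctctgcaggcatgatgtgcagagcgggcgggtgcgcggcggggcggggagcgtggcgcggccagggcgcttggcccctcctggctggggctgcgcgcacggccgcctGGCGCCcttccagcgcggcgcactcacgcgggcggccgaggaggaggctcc

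Of the 48 genes, 32 had an entry in the RefSeq promoter table, and *Bmp2* and *Tgfb3* were not among them. The 5 regions differed in base composition, from 53.6% G and C in *Tgfb2* to 63.2% in *Bmp4*, 66.8% in *Smad6*, 73.2% in *Smad9* and 75.2% in *Tgfb1*. *Tgfb2* carried TATAAA at position -31 and CAGACA, a form of the SMAD box, at -204. The GC-rich palindrome GGCGCC, known as a site for BMP-activated SMADs, was found at -51 in *Smad9*. The search covered both strands. GGCGCC was present in 8 of the 32 regions (25.0%) and in 9.57% of all 27025 promoters of the table, in a set whose median GC content was 67.4% against 52.0% for all promoters. The 8 genes were *Bmpr1a*, *Bmpr2*, *Chrd*, *Grem1*, *Id2*, *Id4*, *Smad9* and *Tgfbr1*, which did not move in a common direction below. CAGACA was present in 3 of the 32 (9.38%, against 17.1% of all promoters), in *Bmpr1b*, *Fstl3* and *Tgfb2*. TATAAA was found in 12.5% of the 32 and 13.0% of all, the TEAD motif GGAATG in 6.25% and 12.6%, TGACGT in 3.12% and 6.52%, and neither the AP-1 motif TGANTCA (6.85% of all) nor the CArG box (1.41% of all) in any of the 32. A match of this kind is a string of letters and was not tested as a binding site.

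Libraries held 30116810 to 42781371 counts. Levels are given in CPM, counts scaled to a common library size with TMM factors over the 8 libraries. *Trp53* itself stood at 182 and 193 CPM in vehicle-treated and 126 and 128 CPM in capmatinib-treated NF1-MET libraries, and at 97.5 and 100 CPM and 68.0 and 68.8 CPM in the same order in the sgP53 line, a reduction of transcript and not its loss. Transcript level does not measure protein, and the paper reports lower p53 protein and lower p21 in the sgP53 line. The non-coding gene *Gm42418* took 1.11% to 13.1% of a library. Among 10 Schwann cell and MPNST markers, 7 were under 1 CPM in every library, *Sox10* and *S100b* among them, and the summed level of 449 to 496 CPM was almost wholly *Nes* (427 to 473 CPM). All 6 endothelial and all 5 epithelial markers were under 1 CPM throughout, and so were 4 of 5 immune markers, with *Cd68* at 0.759 to 1.93 CPM.

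Capmatinib moved most of the pathway in both lines, and upward more often than downward. In NF1-MET, 31 of the 45 genes rose and 8 fell at an adjusted p under 0.05 in edgeR's quasi-likelihood test, 86.7% of those tested against 70.2% of all genes (35.5% higher and 34.7% lower). In the sgP53 line, 33 rose and 6 fell, again 86.7%, against 67.6% of all genes (34.2% higher and 33.4% lower). Well expressed genes are called more readily, and 36 of the 45 averaged 10 CPM or more over the libraries. Within this subset, 88.9% and 91.7% were called, close to the 83.4% and 81.1% of all genes at that level. The direction and the size stood further from the background, in a set whose members were chosen with earlier results of these data known. Comparisons of the set with all genes, here and below, are therefore descriptions. The median log2 fold change of the 45 genes was 0.46 in NF1-MET and 0.49 in the sgP53 line against 0 for all genes, and rises of at least 2-fold made up 13 of 45 in each line against 11.5% and 10.4% of all genes. *Bmp2* was the 1 gene called with a fall of at least 2-fold in each line, where 5.35% and 5.02% of all genes fell as far. In NF1-MET this count was 4 with library totals, and 2 with the bias-adjusted edgeR test and without vehicle replicate 1, capmatinib replicate 1 or capmatinib replicate 2. These were bulk RNA measurements, in which a change in the number of cells of a given state and a change in RNA per cell cannot be told apart.

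Both lines responded in a like manner gene by gene. Of the 45 genes, 30 rose in both lines and 5 fell in both, 3 were called only in NF1-MET and 3 only in the sgP53 line, 3 were called in neither, and *Acvr1* was called in opposite directions. Over all 14496 genes, 8767 were called in both lines, 44 of them in opposite directions. The correlation of the 2 sets of log2 fold changes, which share no library, was 0.968 across the 45 genes and 0.898 across all genes, given as a description since genes are not independent. When libraries were scaled by their totals the median of all genes shifted by -0.18 in NF1-MET and -0.12 in the sgP53 line, and the split of the set in NF1-MET became 26 higher and 13 lower. Of all 14496 genes, 3508 were then higher and 6381 lower in NF1-MET. Small changes therefore depend on the scaling. Calls larger than these shifts were also lost, such as those of *Ltbp3* and *Smad1* in the sgP53 line, each at 0.31.

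**Figure D1:**
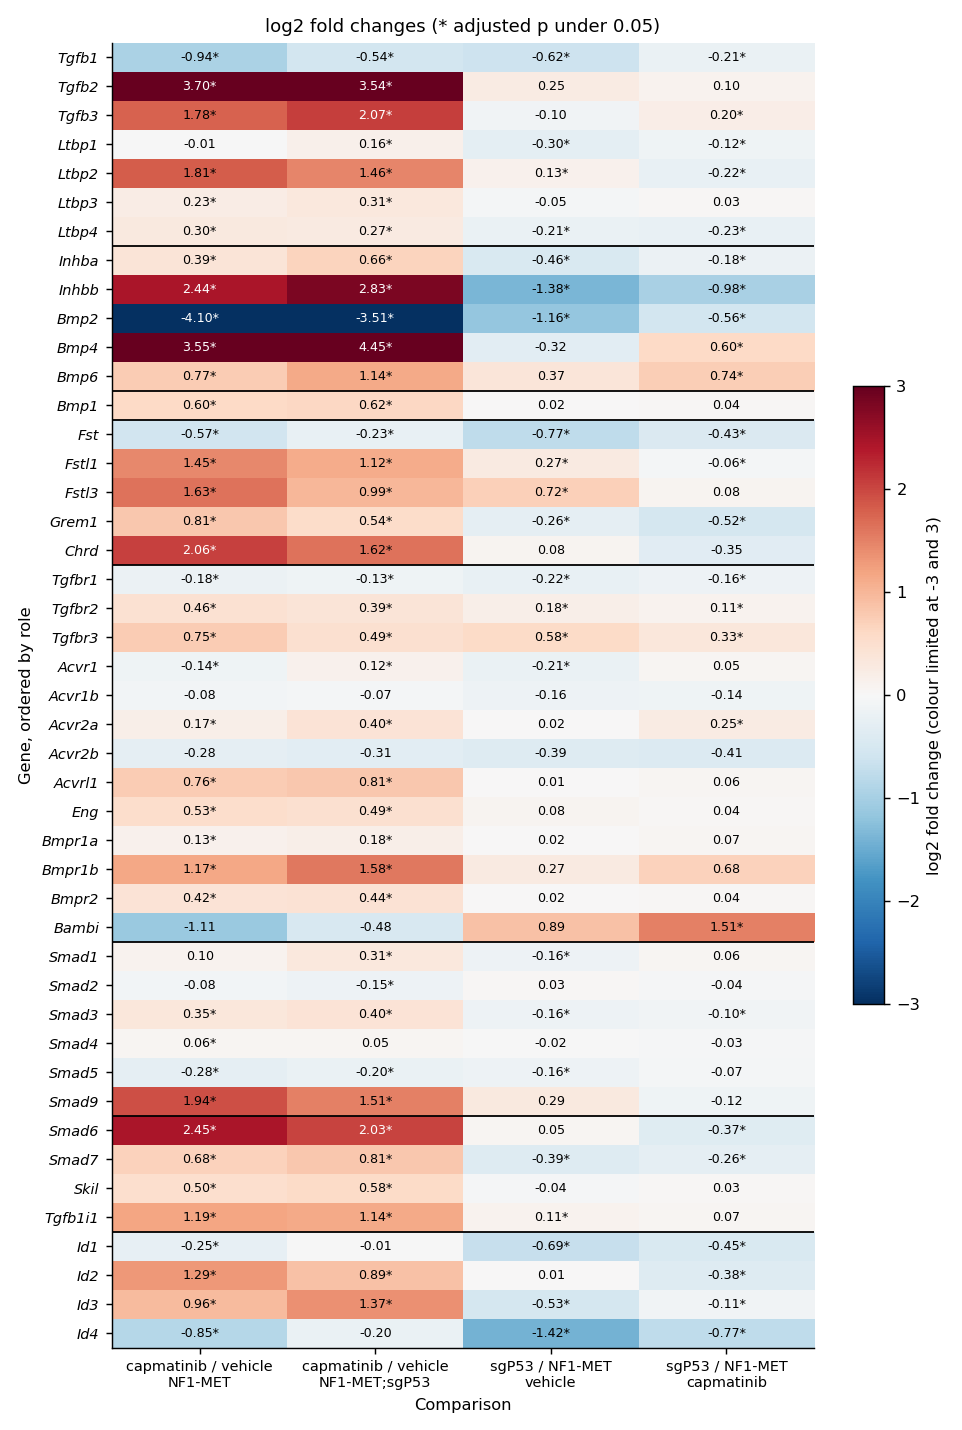
log2 fold changes of the 45 tested genes (rows, ordered by role) in the 4 pairwise comparisons (columns), with colour limited at 3 and -3 and an asterisk for an adjusted p under 0.05. The first 2 columns are mostly red, with *Tgfb2* at 3.70 and 3.54 and *Bmp2* at -4.10 and -3.51, while the line differences in the other 2 columns lie between -1.42 and 1.51.

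The 3 TGF-β ligand genes moved in different directions. *Tgfb2* (chromosome 1, 186622792 to 186705989, minus strand) was at 3.22 and 3.13 CPM in vehicle-treated NF1-MET libraries and at 44.5 and 39.8 CPM with capmatinib. In the sgP53 line its levels were 3.40 and 4.21 CPM with vehicle and 43.9 and 45.7 CPM with capmatinib. All 4 capmatinib libraries were far above all 4 vehicle libraries. The log2 fold change was 3.70 in NF1-MET (SE 0.0843, adjusted p = 2.87e-27), a 13.0-fold rise, and 3.54 in the sgP53 line (SE 0.0788, adjusted p = 3.02e-20).

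*Tgfb3* (chromosome 12, 86056745 to 86079041, minus strand) started from a higher level. It stood at 57.0 and 60.4 CPM with vehicle and 202 and 205 CPM with capmatinib in NF1-MET, and at 54.3 and 56.5 CPM and 232 and 235 CPM in the sgP53 line. The capmatinib libraries of the sgP53 line were the highest of the 8. The rise was 1.78 on the log2 scale in NF1-MET (SE 0.0314, adjusted p = 2.5e-30) and 2.07 in the sgP53 line (SE 0.0352, adjusted p = 2.4e-22).

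*Tgfb1* (chromosome 7, 25687002 to 25705077, plus strand) went down. Its level was 96.1 and 95.3 CPM with vehicle and 50.3 and 50.4 CPM with capmatinib in NF1-MET, and 61.0 and 65.2 CPM against 41.1 and 45.7 CPM in the sgP53 line. No capmatinib library reached the lowest vehicle library. The log2 fold change was -0.94 in NF1-MET (SE 0.0346, adjusted p = 1.33e-21) and -0.54 in the sgP53 line (SE 0.0466, adjusted p = 7.3e-10).

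Dividing CPM by the exon length of each gene allowed the 3 ligands to be set against each other. In vehicle-treated NF1-MET libraries *Tgfb1* made up 52.3% and 50.7% of the summed CPM per kb of the 3 genes, *Tgfb3* 46.2% and 47.9%, and *Tgfb2* 1.53% and 1.45%. With capmatinib *Tgfb1* made up 12.9% in both libraries, *Tgfb3* 77.2% and 78.2%, and *Tgfb2* 9.92% and 8.87%. In the sgP53 line the share of *Tgfb1* went from 42.1% and 42.6% to 9.66% and 10.5%, and that of *Tgfb3* from 55.8% and 55.0% to 81.4% and 80.4%. The sum itself was 36.5 and 37.3 CPM per kb with vehicle and 77.4 in each capmatinib library of NF1-MET, and 28.7 and 30.4 against 84.4 and 86.3 in the sgP53 line. By this measure the main TGF-β transcript was *Tgfb1* or *Tgfb3* with vehicle, depending on the line, and *Tgfb3* in all 4 capmatinib libraries. The length was the union of all annotated exons, 5042 bases for *Tgfb1* and 3383 for *Tgfb3*, which can exceed that of the transcript expressed. In CPM *Tgfb1* was above *Tgfb3* with vehicle in both lines, at means of 63.1 and 55.4 in the sgP53 line. The order with vehicle therefore depends on the length used.

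**Figure D2:**
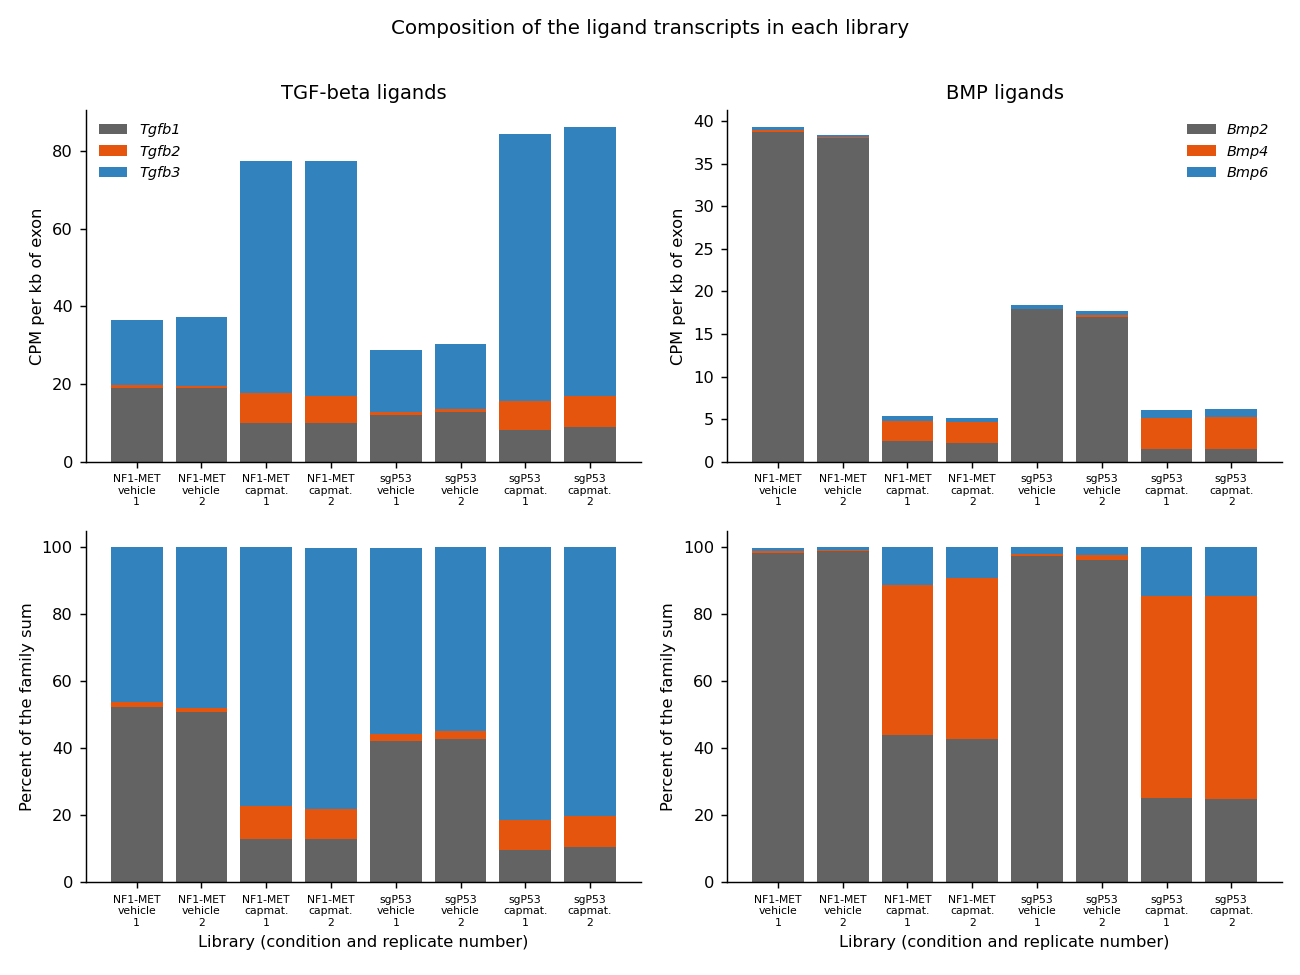
Stacked bars of the TGF-β ligand genes (left) and the BMP ligand genes (right) in each of the 8 libraries, as CPM per kb of exon (top) and as a percentage of the family sum (bottom). With capmatinib the TGF-β sum is higher and mostly *Tgfb3*, at 77.2% to 81.4%, while the BMP sum is lower and no longer mostly *Bmp2*.

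Among the latent TGF-β binding proteins, *Ltbp2* moved most. LTBP2 is a microfibril protein that, unlike its relatives, does not bind latent TGF-β. It was at 309 and 311 CPM with vehicle and 1080 and 1120 CPM with capmatinib in NF1-MET, and at 336 and 350 CPM against 941 and 942 CPM in the sgP53 line. The log2 fold change was 1.81 (SE 0.0222, adjusted p = 1.13e-34) and 1.46 (SE 0.027, adjusted p = 1.08e-21). *Ltbp3* and *Ltbp4*, which carry latent TGF-β, rose by 0.23 to 0.31 in the 2 lines, and none of these 4 calls was kept when libraries were scaled by their totals. *Ltbp1* had a log2 fold change of -0.01 in NF1-MET, which did not pass, and rose by 0.16 in the sgP53 line, a call also lost with library totals. Per length, *Ltbp1* was the most abundant of the 4 with vehicle, at 61.7 and 63.6 CPM per kb in NF1-MET, and *Ltbp2* with capmatinib, at 132 and 136 CPM per kb.

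The BMP ligands moved in opposite directions. *Bmp2* (chromosome 2, 133552159 to 133562885, plus strand) was at 138 and 135 CPM in vehicle-treated NF1-MET libraries and at 8.42 and 7.73 CPM with capmatinib, a log2 fold change of -4.10 (SE 0.0478, adjusted p = 2.69e-35) and the largest fall of the set. In the sgP53 line it was at 63.5 and 60.5 CPM with vehicle and at 5.42 and 5.46 CPM with capmatinib. The 4 capmatinib libraries all lay below 10 CPM, and the vehicle libraries of the sgP53 line were below those of NF1-MET.

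*Bmp4* (chromosome 14, 46383520 to 46390669, minus strand) moved the other way from near the detection limit. It had 21 and 14 counts with vehicle and 151 and 211 with capmatinib in NF1-MET, and 6 and 23 against 290 and 304 in the sgP53 line. In CPM these were 0.579 and 0.351, 5.46 and 5.49, 0.175 and 0.538, and 8.23 and 8.38. The vehicle libraries of each line differed among themselves, and all lay below the capmatinib libraries. The log2 fold change was 3.55 in NF1-MET (SE 0.216, adjusted p = 9.17e-16) and 4.45 in the sgP53 line (SE 0.216, adjusted p = 3.33e-14).

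*Bmp6* was low throughout, at 1.38 and 1.03 CPM with vehicle and 2.39 and 1.82 with capmatinib in NF1-MET, and at 1.51 and 1.62 against 3.43 and 3.47 CPM in the sgP53 line. Its log2 fold change was 1.14 in the sgP53 line (SE 0.181, adjusted p = 8.79e-06). In NF1-MET it was 0.77 (adjusted p = 0.00376), a call lost without vehicle replicate 2 (adjusted p = 0.0614) and without capmatinib replicate 1 (adjusted p = 0.0654). The exons of *Bmp6* share 224 bases with *Txndc5* on the opposite strand, which had 15755 to 21538 counts per library against at least 41 for *Bmp6*. The strand setting of the counting was not given in the sources used here. How reads of the shared bases were assigned is therefore unknown, and the values of *Bmp6* are uncertain.

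Per length, *Bmp2* made up 96.3% to 98.9% of the summed *Bmp2*, *Bmp4* and *Bmp6* level in the vehicle libraries. With capmatinib it made up 43.8% and 42.8% in NF1-MET and 25.1% and 24.9% in the sgP53 line. *Bmp4* then held 44.9% and 48% in NF1-MET and 60.4% and 60.6% in the sgP53 line. The sum fell from 39.3 and 38.4 CPM per kb to 5.41 and 5.09 in NF1-MET, and from 18.3 and 17.7 to 6.06 and 6.15 in the sgP53 line, so the gain in *Bmp4* was smaller than the loss of *Bmp2* in units of transcript.

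Both activin β-subunit genes rose. *Inhba*, which encodes the subunit of activin A, was at 109 and 108 CPM with vehicle and 142 and 144 with capmatinib in NF1-MET, and at 79.3 and 79.7 against 128 and 123 CPM in the sgP53 line. Its log2 fold changes were 0.39 (SE 0.0286, adjusted p = 1.12e-13) and 0.66 (SE 0.0361, adjusted p = 2.65e-13). *Inhbb*, the subunit of activin B, was much lower, at 0.909 and 0.903 CPM and 5.10 and 4.89 CPM in NF1-MET, and at 0.349 and 0.351 CPM and 2.87 and 2.18 CPM in the sgP53 line. Its log2 fold change was 2.44 (SE 0.185, adjusted p = 2.3e-13) and 2.83 (SE 0.294, adjusted p = 1.57e-08), from 12 and 15 counts in the vehicle libraries of the sgP53 line. *Bmp1*, a metalloprotease that cleaves procollagens and chordin and despite its name is no ligand of the family, rose by 0.60 and 0.62.

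**Figure D3:**
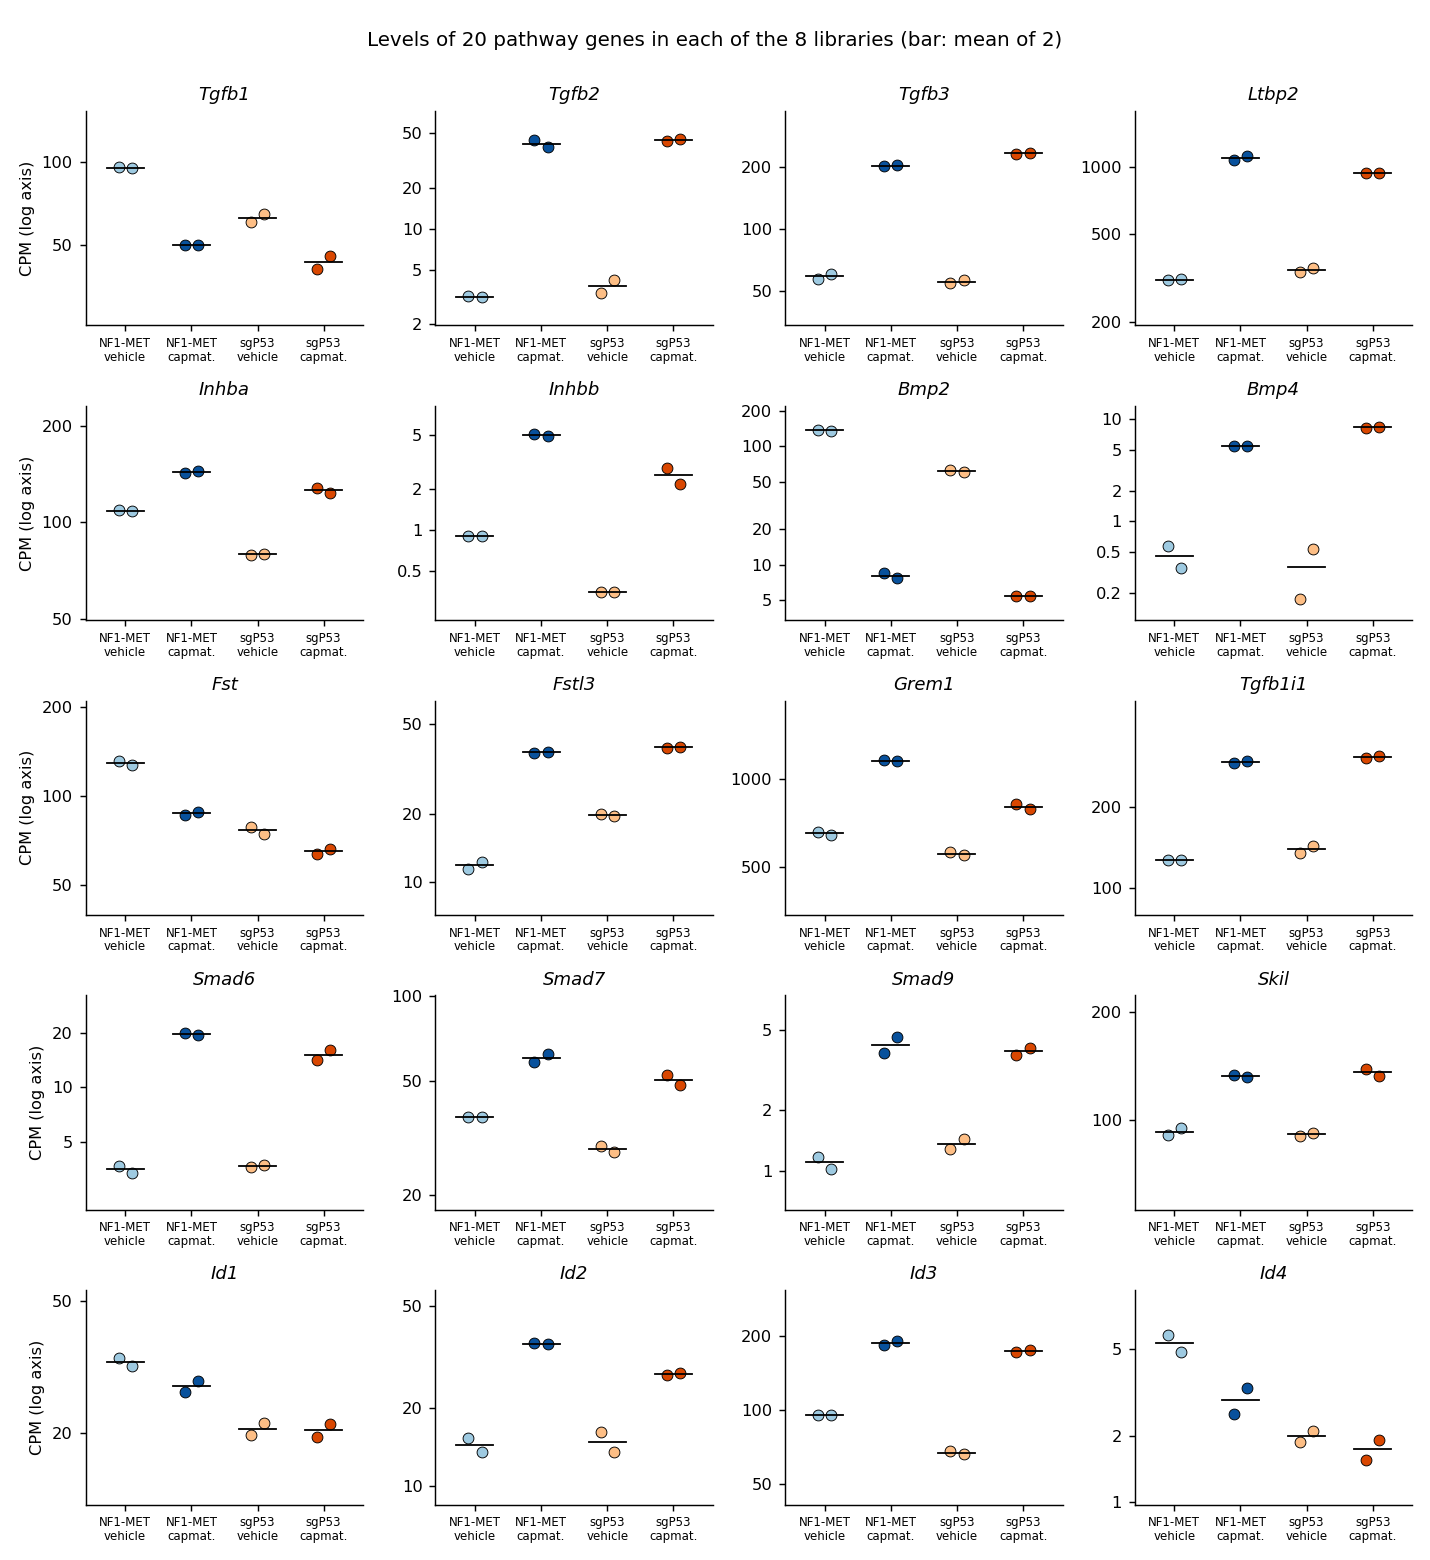
CPM of 20 genes (panels, log axes) in each library, with 2 points and a bar at their mean for each group. *Tgfb2*, *Inhbb*, *Bmp4*, *Smad6* and *Smad9* are higher in all capmatinib libraries than in any vehicle library, *Bmp2* is lower, and *Id1* and *Id4* are lowest in the NF1-MET;sgP53 libraries.

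Of the 5 secreted antagonists tested, 4 rose and follistatin fell in both lines, where 35.5% and 34.2% of all genes rose. *Fstl1*, a secreted glycoprotein that modulates BMP and TGF-β signals, was at 631 and 632 CPM with vehicle and at 1750 CPM in each capmatinib library of NF1-MET, and at 773 and 767 against 1670 and 1680 CPM in the sgP53 line. The log2 fold change was 1.45 (SE 0.0187, adjusted p = 3.89e-34) and 1.12 (SE 0.0216, adjusted p = 2.31e-21). *Fstl3*, an activin-binding relative of follistatin, was at 11.5 and 12.3 CPM and 37.3 and 37.4 CPM in NF1-MET, and at 20 and 19.7 CPM and 39.2 and 39.5 CPM in the sgP53 line. The capmatinib libraries of both lines lay close together, and the vehicle libraries did not. *Fstl3* rose by 1.63 (SE 0.0611, adjusted p = 2.37e-21) and by 0.99 (SE 0.0521, adjusted p = 1.51e-13).

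*Grem1*, a BMP antagonist, was the most abundant transcript of the whole set per length in vehicle-treated NF1-MET libraries, at 159 and 155 CPM per kb, above *Fstl1* at 128 and 129. In CPM it stood at 659 and 643 with vehicle and 1160 and 1150 with capmatinib in NF1-MET, and at 560 and 546 against 819 and 788 in the sgP53 line. It rose by 0.81 (SE 0.02, adjusted p = 2.45e-26) and 0.54 (SE 0.0267, adjusted p = 4.9e-14). *Chrd* (chordin) was at 0.441 and 0.426 CPM and 2.10 and 1.64 CPM in NF1-MET, and at 0.407 and 0.515 CPM and 1.08 and 1.79 CPM in the sgP53 line, with 14 to 65 counts. The rise was 2.06 (SE 0.298, adjusted p = 2.85e-07) and 1.62 (SE 0.342, adjusted p = 0.000244). *Fst* (follistatin), which neutralises activin, went from 131 and 127 CPM to 86.3 and 88.5 CPM in NF1-MET, a log2 fold change of -0.57 (SE 0.0303, adjusted p = 2.16e-17), and from 78.4 and 74.7 CPM to 63.6 and 66.5 CPM in the sgP53 line, a change of -0.23 (SE 0.0357, adjusted p = 5.06e-06). Activin subunits thus rose while 1 of the activin-binding antagonists fell and the other rose.

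The receptors moved about as much as all genes did. Their median absolute log2 fold change was 0.42 in NF1-MET and 0.4 in the sgP53 line, against 0.41 and 0.4 for all genes. Of the 13 receptors, co-receptors and the pseudoreceptor, 8 rose and 2 fell in NF1-MET and 9 rose and 1 fell in the sgP53 line. Of all genes, 35.5% and 34.2% rose. The share of receptors called was 76.9% in each line, near the 70.2% and 67.6% of all genes. *Bmpr1b* was the 1 receptor gene called with a change of 2-fold or more. *Tgfbr2*, the type II TGF-β receptor, rose by 0.46 and 0.39, and *Tgfbr1*, the type I receptor, fell by 0.18 in NF1-MET and by 0.13 in the sgP53 line, where the call was lost without capmatinib replicate 2. *Tgfbr3* (betaglycan), the co-receptor that presents TGF-β2 in particular, was at 32.7 and 34.2 CPM with vehicle and 56.4 and 57.0 with capmatinib in NF1-MET, and at 50.7 and 50.9 against 68.2 and 74.3 CPM in the sgP53 line. It rose by 0.75 (SE 0.0439, adjusted p = 3.78e-16) and by 0.49 (SE 0.0401, adjusted p = 3.23e-10).

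*Eng* (endoglin) and *Acvrl1*, a co-receptor and a type I receptor best known from endothelium, rose by 0.53 and 0.76 in NF1-MET and by 0.49 and 0.81 in the sgP53 line. *Eng* was at 58.0 to 62.5 CPM in the vehicle libraries, in which the 6 endothelial markers summed to 0.226 to 0.358 CPM, with *Tie1* and *Emcn* at 0 in all 8 libraries. Among the BMP receptors *Bmpr2* rose by 0.42 and 0.44. *Bmpr1b*, a type I receptor, was at 0.468 and 0.652 CPM and 1.34 and 1.25 CPM in NF1-MET, and at 0.698 and 0.679 CPM and 1.84 and 2.29 CPM in the sgP53 line. Its rise was 1.17 (SE 0.305, adjusted p = 0.00106) and 1.58 (SE 0.262, adjusted p = 1.4e-05), on 17 to 83 counts. *Bmpr1a*, far more abundant at 24.5 and 24.0 CPM per kb in vehicle-treated NF1-MET libraries, rose by 0.13 and 0.18, of which the first became -0.05 with library totals and the second was no longer called.

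Activin receptors had small values. The exons of *Acvr2a* share 446 bases with *Orc4* on the opposite strand, which had 1161 to 1862 counts per library. How reads of those bases were assigned is unknown, as for *Bmp6*. *Acvr2a* rose by 0.40 in the sgP53 line and by 0.17 in NF1-MET, where the value became -0.02 with library totals and the call was lost without vehicle replicate 1 or either capmatinib replicate. *Acvr1* fell by 0.14 in NF1-MET and rose by 0.12 in the sgP53 line, where it became -0.01 with library totals and lost its call without capmatinib replicate 2. *Acvr1b* and *Acvr2b* passed in neither line, at -0.08 and -0.07 and at -0.28 and -0.31. *Bambi*, a pseudoreceptor without a kinase domain, had 6 to 45 counts in a library and log2 fold changes of -1.11 (SE 0.504, adjusted p = 0.0502) and -0.48 (SE 0.349, adjusted p = 0.229), neither of which passed.

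Among the receptor-regulated SMADs, *Smad9* stood out. It was at 1.18 and 1.03 CPM with vehicle and 3.83 and 4.63 CPM with capmatinib in NF1-MET, and at 1.28 and 1.45 against 3.77 and 4.08 CPM in the sgP53 line, on 41 to 178 counts. The rise was 1.94 (SE 0.189, adjusted p = 9.53e-11) and 1.51 (SE 0.182, adjusted p = 1.62e-07). The other BMP-specific SMADs moved less and not together. *Smad5* fell by 0.28 and 0.20, and *Smad1* had 0.10 in NF1-MET, which did not pass (adjusted p = 0.0528), and rose by 0.31 in the sgP53 line, a call lost with library totals. Of the TGF-β and activin SMADs, *Smad3* rose by 0.35 and 0.40, while *Smad2* was at -0.08 in NF1-MET, which did not pass, and fell by 0.15 in the sgP53 line, a call lost without capmatinib replicate 2. The common partner *Smad4* was called higher in NF1-MET by 0.06 (adjusted p = 0.0496), which became -0.12 with library totals and was lost when any of the 4 libraries was left out, and was at 0.05 in the sgP53 line without passing. Per length *Smad4* was the most abundant SMAD with vehicle in NF1-MET (26.8 and 26.6 CPM per kb), followed by *Smad3* (18.8 and 19.1) and *Smad5* (18.3 and 19.0), whose ranges overlapped. *Smad9* was the least abundant, at 0.221 and 0.192 CPM per kb, and remained below *Smad1* (6.80 and 6.79) with capmatinib, at 0.714 and 0.863.

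All 4 intracellular modulators of the set rose in both lines, where 35.5% and 34.2% of all genes rose. *Smad6*, the inhibitor specific to BMP signals, was at 3.69 and 3.41 CPM with vehicle and 20 and 19.3 CPM with capmatinib in NF1-MET, and at 3.64 and 3.77 against 14.2 and 16.0 CPM in the sgP53 line. It rose by 2.45 (SE 0.0934, adjusted p = 3.9e-21) and 2.03 (SE 0.0994, adjusted p = 4.26e-14). *Smad7*, which inhibits both branches, rose from 37.5 and 37.4 CPM to 58.3 and 62.6 CPM in NF1-MET, a change of 0.68 (SE 0.0434, adjusted p = 2.95e-15), and from 29.6 and 28.3 CPM to 52.6 and 48.5 CPM in the sgP53 line, a change of 0.81 (SE 0.0491, adjusted p = 1.91e-12). *Skil*, which encodes the SMAD corepressor SnoN, rose by 0.50 and 0.58. *Tgfb1i1*, a TGF-β-inducible focal adhesion protein and nuclear co-activator, was at 127 CPM in each vehicle library and 290 and 295 CPM with capmatinib in NF1-MET, and at 135 and 143 against 303 and 309 CPM in the sgP53 line. It rose by 1.19 (SE 0.0258, adjusted p = 7.3e-28) and 1.14 (SE 0.033, adjusted p = 3.51e-18).

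The 4 ID genes, which encode helix-loop-helix proteins without a DNA-binding domain, split into 2 that rose and 2 that did not. *Id2* was at 15.3 and 13.5 CPM with vehicle and 35.9 and 35.4 CPM with capmatinib in NF1-MET, and at 16.1 and 13.5 against 27.0 and 27.5 CPM in the sgP53 line. It rose by 1.29 (SE 0.0618, adjusted p = 1.71e-18) and 0.89 (SE 0.0724, adjusted p = 2.87e-10). *Id3* was at 95.8 and 95.4 CPM and 184 and 192 CPM in NF1-MET, and at 68.3 and 66.3 CPM and 173 and 176 CPM in the sgP53 line. The rise was 0.96 (SE 0.0295, adjusted p = 1.09e-23) and 1.37 (SE 0.0356, adjusted p = 5.05e-19), and *Id3* was the most abundant ID gene per length in all 8 libraries. *Id1* went from 33.6 and 31.8 CPM to 26.6 and 28.7 CPM in NF1-MET, a fall of 0.25 (SE 0.0542, adjusted p = 0.000135). In the sgP53 line it was at 19.6 and 21.4 CPM with vehicle and 19.4 and 21.2 CPM with capmatinib, and the value of -0.01 did not pass. *Id4* followed the same course, from 5.81 and 4.84 CPM to 2.53 and 3.33 CPM in NF1-MET, a change of -0.85 (SE 0.147, adjusted p = 6.46e-06), and with 1.89 and 2.11 CPM against 1.56 and 1.93 CPM in the sgP53 line, where -0.20 did not pass (adjusted p = 0.413).

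The sgP53 line was then compared with its parent at each treatment. With vehicle, 6 of the 45 genes were higher and 17 lower in the sgP53 line, 51.1% against 23.2% of all genes (10.9% higher and 12.3% lower). With capmatinib 7 were higher and 18 lower, 55.6% against 12.3% of all genes (5.94% higher and 6.34% lower). Among the 36 genes that averaged 10 CPM or more the shares were 58.3% and 55.6%, against 30.5% and 15.8% of all genes at that level. The median absolute log2 difference was 0.21 with vehicle and 0.16 with capmatinib over the 45 genes, against 0.12 and 0.09 over all genes. Among genes that averaged 10 CPM or more it was 0.16 and 0.11 for the set, against 0.08 and 0.06. The split with capmatinib depended on the scaling, since library totals gave 7 higher and 5 lower, the 5 being *Bmp2*, *Fst*, *Grem1*, *Id4* and *Inhbb*, and shifted the median of all genes by 0.11. Under that scaling 537 of all 14481 genes were higher and 129 lower. With vehicle library totals gave 4 higher and 11 lower in the set, and 1280 higher and 743 lower of all 14484 genes.

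Among the ligands, *Bmp2*, *Tgfb1*, *Inhba* and *Inhbb* were lower in the sgP53 line at both treatments. For *Bmp2* the log2 difference was -1.16 with vehicle (SE 0.0334, adjusted p = 1.53e-15) and -0.56 with capmatinib (SE 0.105, adjusted p = 0.00126). *Tgfb1* differed by -0.62 with vehicle (SE 0.0349, adjusted p = 5.18e-11) and by -0.21 with capmatinib (adjusted p = 0.00533), of which the second was lost with library totals and without sgP53 capmatinib replicate 1. *Inhbb* differed by -1.38 with vehicle (SE 0.348, adjusted p = 0.00614), on 12 to 36 counts and with no call in DESeq2, and by -0.98 with capmatinib (SE 0.154, adjusted p = 0.000244). *Inhba* differed by -0.46 and -0.18, the second lost with library totals.

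*Bmp4* and *Bmp6* did not pass with vehicle, at -0.32 and 0.37, and were higher in the sgP53 line with capmatinib, by 0.60 (SE 0.102, adjusted p = 0.000531) and 0.74 (SE 0.178, adjusted p = 0.00928), the latter lost without NF1-MET capmatinib replicate 2 (adjusted p = 0.163) and in DESeq2. *Tgfb3* was higher by 0.20 with capmatinib and did not pass with vehicle, at -0.10. *Tgfb2* passed in neither, at 0.25 and 0.10. Among the latent binding proteins *Ltbp1* was lower at both treatments, at -0.30 and -0.12, and so was *Ltbp4*, at -0.21 and -0.23. *Ltbp2* was higher with vehicle, at 0.13, and lower with capmatinib, at -0.22. The calls of these 3 genes were lost with library totals, except that of *Ltbp1* with vehicle.

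Antagonists differed as well. *Fst* was lower in the sgP53 line by -0.77 with vehicle (SE 0.0337, adjusted p = 1.01e-12) and by -0.43 with capmatinib (SE 0.0337, adjusted p = 8.29e-08), and *Grem1* by -0.26 and by -0.52 (SE 0.0223, adjusted p = 2.56e-11). *Fstl3* was higher with vehicle by 0.72 (SE 0.0692, adjusted p = 1.34e-07) and did not pass with capmatinib, at 0.08. *Fstl1* was higher by 0.27 with vehicle. With capmatinib it was lower by -0.06, which turned to 0.05 with library totals and was lost when any single library was left out. *Chrd* passed in neither, at 0.08 and -0.35.

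Of the receptors, *Tgfbr3* was higher in the sgP53 line by 0.58 with vehicle (SE 0.0434, adjusted p = 3.14e-09) and 0.33 with capmatinib (SE 0.0408, adjusted p = 1.83e-05), and *Tgfbr2* by 0.18 and 0.11. *Tgfbr1* was lower, at -0.22 and -0.16, calls that were lost with library totals, as was the capmatinib call of *Tgfbr2*. In DESeq2 neither *Tgfbr1* nor *Tgfbr2* kept its capmatinib call. The capmatinib calls of both receptors were also lost without NF1-MET capmatinib replicate 1, and that of *Tgfbr1* without sgP53 capmatinib replicate 2. *Acvr1* was lower with vehicle, at -0.21, and did not pass with capmatinib, and *Acvr2a* was higher by 0.25 with capmatinib and did not pass with vehicle. The call of *Acvr1* was lost with library totals (adjusted p = 0.139) and that of *Acvr2a* in DESeq2 (adjusted p = 0.118). *Bambi* was higher by 1.51 with capmatinib (SE 0.469, adjusted p = 0.0427), from 8 and 6 counts in NF1-MET and 20 and 24 in the sgP53 line, a call lost without NF1-MET capmatinib replicate 2, without sgP53 capmatinib replicate 2 and in DESeq2. Inside the cell *Smad7* was lower by -0.39 with vehicle (SE 0.0486, adjusted p = 3.67e-06) and by -0.26 with capmatinib, and *Smad6* by -0.37 with capmatinib (SE 0.0702, adjusted p = 0.00138), and both capmatinib calls were lost with library totals (adjusted p = 0.428 and 0.214). *Smad1*, *Smad3* and *Smad5* were each lower with vehicle, at -0.16, and none of the 3 calls was kept with library totals, nor that of *Smad1* without NF1-MET vehicle replicate 2 or sgP53 vehicle replicate 1. With capmatinib *Smad3* had -0.10 (adjusted p = 0.0499), which turned to 0.02 with library totals and was lost without either NF1-MET capmatinib replicate or sgP53 capmatinib replicate 1. *Tgfb1i1* was higher by 0.11 with vehicle, a call lost without either NF1-MET vehicle replicate or sgP53 vehicle replicate 2.

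Most ID genes stood lower in the sgP53 line, 3 of 4 with vehicle and 4 of 4 with capmatinib, against 12.3% and 6.34% of all genes called lower. With vehicle *Id1*, *Id3* and *Id4* were lower in the sgP53 line, by -0.69 (SE 0.0582, adjusted p = 1.95e-08), -0.53 (SE 0.0319, adjusted p = 1.49e-10) and -1.42 (SE 0.151, adjusted p = 5.01e-07), while *Id2* was at 0.01 and its groups overlapped. With capmatinib all 4 were lower, *Id1* by -0.45 (SE 0.0622, adjusted p = 6.36e-05), *Id2* by -0.38 (SE 0.0488, adjusted p = 2.54e-05), *Id4* by -0.77 (SE 0.199, adjusted p = 0.0156) and *Id3* by -0.11 (SE 0.0315, adjusted p = 0.0306), although *Id3* turned to 0.01 with library totals. The calls of *Id1* and *Id2* were lost with library totals. The call of *Id4* was lost without NF1-MET capmatinib replicate 2 and without sgP53 capmatinib replicate 1, and that of *Id3* without NF1-MET capmatinib replicate 2, and both were lost in DESeq2.

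Whether the lines differed in their response was tested with an interaction term over all 8 libraries. It was called for 14 of the 45 genes, 31.1% against 9.71% of all genes (3.85% positive and 5.86% negative), and among the 36 genes with at least 10 CPM for 38.9% against 14.4% of all genes at that level. The split of all genes depended on the processing, with 558 positive and 849 negative here, 873 and 612 with *Gm42418* left out, 713 and 509 without sgP53 capmatinib replicate 2, and 192 and 123 with library totals. For the pathway the difference was positive, meaning a more positive response in the sgP53 line, for 8 genes and negative for 6. With library totals 4 and 1 remained called, the former being *Bmp2*, *Fst*, *Id3* and *Tgfb1* and the latter *Fstl3*. Among the 14 called genes *Bmp2* had the largest positive difference, 0.58 (SE 0.0893, adjusted p = 7.55e-05), and *Fstl3* the largest negative, -0.66 (SE 0.0789, adjusted p = 2.37e-06). For *Bmp2*, *Tgfb1* and *Fst* the vehicle level was lower in the sgP53 line and the fall was smaller, and for *Fstl3* the vehicle level was higher and the rise was smaller. The common vehicle groups enter both the level and the response, so these pairs of statements are not independent.

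The inhibitory SMADs showed no called difference in response. *Smad6* had -0.44 (SE 0.145, adjusted p = 0.0563) and *Smad7* 0.11 (SE 0.0678, adjusted p = 0.369), with *Skil* at 0.06 and *Tgfb1i1* at -0.07. *Bmp4* had 0.89 (SE 0.434, adjusted p = 0.234), the largest value of the set, with 6 to 23 counts in the vehicle libraries. *Tgfb2* was at -0.18 (SE 0.143, adjusted p = 0.511).

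**Figure D4:**
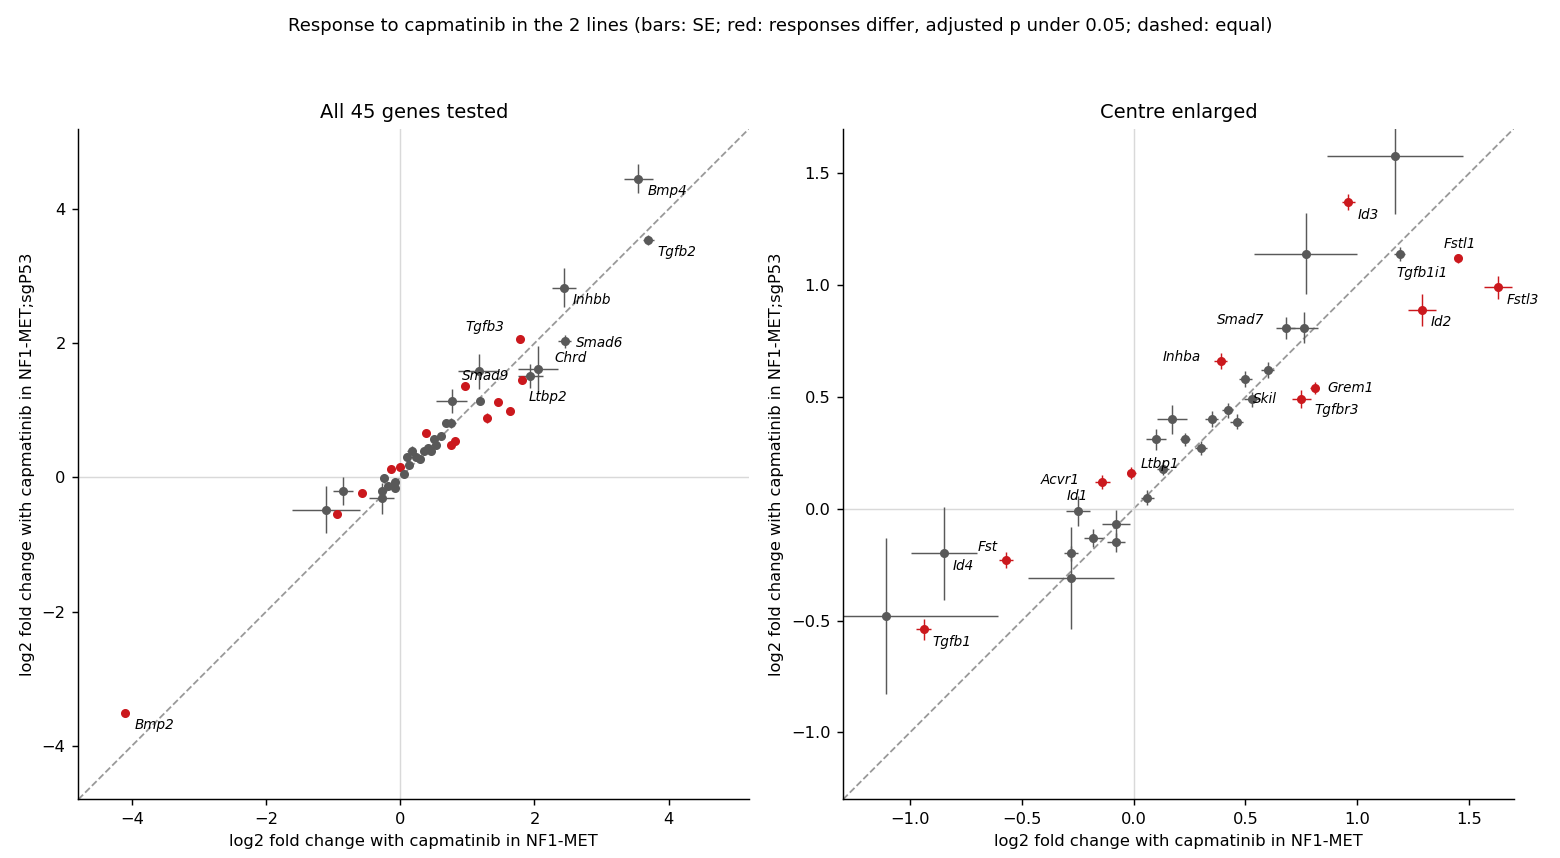
log2 fold change with capmatinib in NF1-MET (x) against NF1-MET;sgP53 (y) for the 45 genes, with bars of 1 SE, at left over the full range and at right for the centre. Points lie along the dashed line of equal response, and the 14 genes with a called interaction are red, among them *Bmp2* at -4.10 and -3.51 and *Fstl3* at 1.63 and 0.99.

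Other genes of the pathway, on lists fixed apart from the 48, gave the surroundings of these changes. These lists were drawn up with earlier results of these data known, and the collagen and contractile genes among the TGF-β targets in particular were already known to rise. For comparison with the counts that follow, 70.2% of all genes were called in NF1-MET and 67.6% in the sgP53 line. Of 23 TGF-β target genes tested, 21 rose and 2 fell in NF1-MET and 22 rose and 1 fell in the sgP53 line, with medians of 1.69 and 1.5. *Cnn1*, a smooth muscle calponin, went from a mean of 1.80 to 153 CPM in NF1-MET and from 7.03 to 192 CPM in the sgP53 line, log2 fold changes of 6.38 and 4.78. *Postn* (periostin) rose by 4.95 and 4.37 and *Actg2* (an enteric smooth muscle actin) by 4.90 and 4.23. *Tgfbi*, at -0.58, and *Cdkn2b*, at -0.16, were the 2 that fell in NF1-MET, and are named here after their values were seen. In the sgP53 line with vehicle 13 of the 23 were higher and 5 lower, with *Tagln* at 1.83 and *Acta2* at 1.09, 78.3% called against 23.2% of all genes. With capmatinib 7 were higher and 6 lower, 56.5% against 12.3% of all genes, with a median of 0.01. The interaction was called positive for 2 and negative for 12 of the 23, against 3.85% and 5.86% of all genes.

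Of 13 genes that activate or hold latent TGF-β, 9 rose and 1 fell in each line, 76.9% against 70.2% and 67.6% of all genes, so that the number called was near the background. *Lrrc32*, which encodes the cell-surface docking protein GARP, had the largest change, from a mean of 1.02 to 16.9 CPM in NF1-MET and from 1.17 to 13.2 CPM in the sgP53 line, log2 fold changes of 4.02 (SE 0.127, adjusted p = 2.59e-23) and 3.53 (SE 0.136, adjusted p = 6.21e-16). *Thbs1* (thrombospondin-1), an activator of latent TGF-β, rose by 2.09 and 1.94 to means of 4630 and 4540 CPM, and *Fbn1* (fibrillin-1), the microfibril to which LTBPs attach, by 2.05 and 1.73. *Fbn2* was lower in the sgP53 line, by -0.58 with vehicle and -0.56 with capmatinib.

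BMP targets other than the ID genes were mixed, with 5 higher and 3 lower of 10 tested in NF1-MET and 6 higher and 3 lower in the sgP53 line, 80% and 90% called against 70.2% and 67.6% of all genes. *Spp1* (osteopontin) fell by 1.81 and 1.59, from means of 5140 and 3840 CPM. Among further antagonists, 5 rose and 0 fell of 7 in NF1-MET and 5 rose and 1 fell in the sgP53 line (71.4% and 85.7% called), with *Nbl1* rising by 1.27 and 1.10 and *Bmper* by 1.02 and 0.80. *Rgmb*, a BMP co-receptor, fell by 1.65 and 1.16. Of 6 further ligands tested, 2 rose and 2 fell in NF1-MET and 1 rose and 2 fell in the sgP53 line (66.7% and 50% called), with *Gdf11* falling by 0.49 and 0.32. The ubiquitin ligases, phosphatases and cofactors that regulate SMADs split evenly, with 10 higher and 10 lower of 23 in NF1-MET and 8 and 8 in the sgP53 line (87% and 69.6% called). *Pmepa1*, a TGF-β-induced inhibitor of SMAD signalling that stands on this list and on that of the targets, rose by 0.95 and 1.08.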

How the data were processed

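RNA was measured by polyadenylated RNA sequencing in 8 libraries, 2 for each of 4 groups taken from the sample labels. According to the submitters' processing notes, reads were handled with bcl2fastq 1.9.0, Trim Galore 0.4.2, FastQC 0.11.7 and STAR 2.5.2b on mm10. The authors deposited raw counts per gene for all 8 libraries, and the annotation release and strand setting of the counting are not given in the sources used here. Without strand, reads of overlapping genes on opposite strands cannot be told apart.

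From these deposited counts, a gene was kept if 2 or more libraries had 10 or more counts. Each pairwise comparison was fitted on its own 4 libraries with TMM scaling and the quasi-likelihood test of edgeR 4.0.16 in R 4.3.3, and the interaction on all 8 libraries. A gene needed counts above 0 in 2 libraries of the comparison, so 14481 to 14497 genes were tested, and p-values were adjusted over all of them by the Benjamini-Hochberg method. Calls used an adjusted p under 0.05. The SE is the absolute log2 fold change divided by the root of the F statistic. CPM per kb used the exon union of each gene in GENCODE M21 on GRCm38, and promoters came from RefSeq. Library totals of 30116810 to 42781371 counts set the precision, and replicates of a group differed by 1.54 to 1.86 times the Poisson expectation (median squared difference). With 2 libraries per group, whose separate origin beyond the label of biological replicate and duplicate treatment is not described, p-values measure only the spread between these samples, which may be technical.

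Genes given in full were those called that averaged 1 CPM or more in the group of higher level and an absolute log2 change of at least 1 for capmatinib or 0.5 for the other comparisons, and others were given by role. From other pathway lists, called genes that averaged 10 CPM or more there and the 3 largest changes could be named. The members and lists were chosen with earlier results of these data known. Alternatives were DESeq2 1.42.0 size factors and its Wald test, library totals, the bias-adjusted edgeR test, no filter and a stricter filter, a replicate block, all 8 libraries in 1 model, *Gm42418* left out, and each library left out in turn.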

Additional observations from a re-analysis of the deposited data

Results flagged for a closer look

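The response to capmatinib differed between NF1-MET and NF1-MET;sgP53 for 14 of the 45 genes tested (31.1%, against 9.71% of all genes) by the interaction term of edgeR's quasi-likelihood test over all 8 libraries, each value being the log2 response in NF1-MET;sgP53 minus that in NF1-MET.

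Among the ligands and latent binding proteins, the difference was 0.58 for *Bmp2* (adjusted p = 7.55e-05), 0.38 for *Tgfb1* (adjusted p = 7.33e-05), 0.28 for *Tgfb3* (adjusted p = 0.000222), 0.26 for *Inhba* (adjusted p = 0.000271), 0.16 for *Ltbp1* (adjusted p = 0.00614) and -0.37 for *Ltbp2* (adjusted p = 8.07e-08). *Bmp2* and *Tgfb1* fell less in the sgP53 line, and *Tgfb3* and *Inhba* rose more.

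Among the antagonists it was 0.32 for *Fst* (adjusted p = 5.95e-05), -0.66 for *Fstl3* (adjusted p = 2.37e-06), -0.35 for *Fstl1* (adjusted p = 1.94e-09) and -0.29 for *Grem1* (adjusted p = 1.94e-06). *Fst* fell less in the sgP53 line and the other 3 rose less.

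For the receptors *Acvr1* and *Tgfbr3* the values were 0.24 (adjusted p = 0.00115) and -0.27 (adjusted p = 0.00345). The ID genes went in opposite directions, with 0.40 for *Id3* (adjusted p = 1.1e-06) and -0.41 for *Id2* (adjusted p = 0.00841).

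With library totals as the scaling, *Bmp2*, *Fst*, *Fstl3*, *Id3* and *Tgfb1* were still called and the other 9 were not. Among those 9 the difference was larger under that scaling for *Tgfb3* (0.36, adjusted p = 0.0521), *Inhba* (0.34), *Acvr1* (0.32) and *Ltbp1* (0.24), and smaller in size for *Ltbp2* (-0.29), *Fstl1* (-0.27), *Grem1* (-0.21), *Tgfbr3* (-0.19) and *Id2* (-0.34). *Id2* was also lost without NF1-MET vehicle replicate 2 or sgP53 vehicle replicate 1, and *Ltbp1* without NF1-MET vehicle replicate 2.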

How the results depend on the processing

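Of 1886 values recomputed for called genes under the alternatives, 1782 kept their direction and call, 97 kept their direction and lost the call, and 7 changed sign. All 7 arose with library totals in place of TMM factors: *Acvr2a* (-0.02), *Bmpr1a* (-0.05) and *Smad4* (-0.12) for capmatinib in NF1-MET, *Acvr1* (-0.01) for the drug in the sgP53 line, and *Fstl1* (0.05), *Smad3* (0.02) and *Id3* (0.01) between the lines with capmatinib. Library totals also gave 13 genes lower with capmatinib in NF1-MET in place of 8, 11 lower between the lines with vehicle in place of 17, 5 lower with capmatinib in place of 18, and an interaction called positive for 4 in place of 8 and negative for 1 in place of 6. The split of all genes shifted under library totals as well, as given above. The DESeq2 Wald test gave 3 genes higher between the lines with capmatinib in place of 7. Genes called with a fall of at least 2-fold in NF1-MET went from 1 to 4 with library totals and to 2 with the bias-adjusted test and without vehicle replicate 1, capmatinib replicate 1 or capmatinib replicate 2.

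With each library left out in turn, 28 to 29 genes were higher and 8 to 9 lower with capmatinib in NF1-MET, and 32 to 33 and 4 to 6 in the sgP53 line. Between the lines 5 to 7 were higher and 16 to 18 lower with vehicle, and 5 to 8 and 14 to 16 with capmatinib. The interaction was positive for 7 to 9 and negative for 5 to 7. The lone library then left in a group is assumed to vary like the others.

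Libraries with the same replicate number did not deviate together in every pair of groups (correlations of -0.138 to 0.401 over 8589 genes), so the number was not taken as a pairing. With it as a replicate block, 30 were higher and 8 lower with capmatinib in NF1-MET, 33 and 6 in the sgP53 line, 6 and 19 between the lines with vehicle, 6 and 17 with capmatinib, and 9 and 6 for the interaction. The block lost the calls of *Bambi* (adjusted p = 0.051) and *Smad3* (adjusted p = 0.0609) between the lines with capmatinib and of *Smad4* (adjusted p = 0.0501) for capmatinib in NF1-MET. The crossed pairing, added after seeing the data, gave 8 higher and 18 lower between the lines with capmatinib. Counts of 6 to 45 for *Bambi* and 6 to 23 for *Bmp4* with vehicle limit what can be said of these genes.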
